A study of Drosophila melanogaster with 3 samples.

Results

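The ribosome of the cytosol is built from a small 40S and a large 60S subunit, each an RNA core coated by proteins that are present once per particle, apart from the acidic proteins of the stalk. Loss of 1 gene copy of many of these proteins gives the Minute phenotype in Drosophila, with slow growth and thin bristles. In the wing disc, the larval epithelium that forms the adult wing and dorsal thorax, cells with such a loss are eliminated by wild-type neighbours, a process known as cell competition. The genes described here are all 92 protein-coding genes, of 17611 genes listed, whose symbol starts with RpL, RpS or RpLP followed by a digit. They comprise 54 genes named for the large subunit and 38 named for the small subunit. Among them, 27 genes form 14 pairs of paralogs (an a and a b form, or a gene and a like-form), and the other 65 stand alone. Letters in these symbols need care: RpL37a is the paralog of RpL37b, while RpL37A, with a capital, encodes a different protein, and the same holds for RpL7 and RpL7A or RpS3 and RpS3A.

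RNA was sequenced from wing discs of wandering larvae of the last instar in 3 libraries of 1 group, so that no conditions could be compared. The source label gives the genotype as w;apGAL4/+, 1 copy of a GAL4 driver under control of apterous, a gene active in dorsal wing cells. The title and genotype fields call the samples wild type, and the columns carry the prefix w118, which is in no label. By the source label the driver was shared by all libraries, which the other fields do not state. Each library pooled 100 to 120 discs from larvae raised at 25 °C for about 5 days. The labels do not say that the samples were from separate cultures, so the spread between libraries may be technical.

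Values are FPKM (fragments per kilobase of exons, adjusted for sequencing depth), and multiplying by exon length recovered 25047774 to 26454949 reads or read pairs per library. Each of 9 listed wing disc genes reached 1 FPKM in all libraries, from dpp at 15.3 ± 0.598 FPKM to ap at 80.7 ± 1.78 FPKM (SD, n = 3). Genes of some attached or carried-over tissues differed between the libraries. The summed level of 4 fat body genes was 369, 603 and 1422 FPKM in libraries 1, 2 and 3, that of 4 gut protease genes 6.70, 868 and 384 FPKM, and that of 5 salivary glue genes 126, 806 and 287 FPKM. Some other lists varied less. The sum was 352, 381 and 408 FPKM for 3 trachea genes and 153, 162 and 149 FPKM for 4 myoblast genes. For 5 hemocyte genes it was 34.0, 40.9 and 33.4 FPKM. In bulk tissue, a lower level can mean fewer cells of a type or less RNA per cell, and these cannot be told apart.

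Cytosolic ribosomal protein genes were among the most abundant transcripts of the disc, and most of them lay within a narrow range. They made up 28.2, 27.4 and 29.4% of the summed FPKM of libraries 1, 2 and 3, and 12.9, 12.7 and 13.7% of the recovered reads, which are not divided by length. Of the 100 genes with the highest mean FPKM in the table, 70 were members, and so were 5 of the highest 10. The median member stood at 1705 FPKM, against 0.408 FPKM for the median gene of the table. The levels were split into a large high class and a small low class: 78 members lay above 700 FPKM, 1 between 300 and 700 FPKM, 4 between 10 and 300 FPKM, 2 between 1 and 10 FPKM and 7 below 1 FPKM. Among these 7 is RpL7-like, listed at 0, for which the counting of shared reads is not known. All 14 genes below 700 FPKM belonged to a paralog pair, and all 65 members outside pairs lay above it, the lowest at 751 FPKM.

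**Figure D1:**
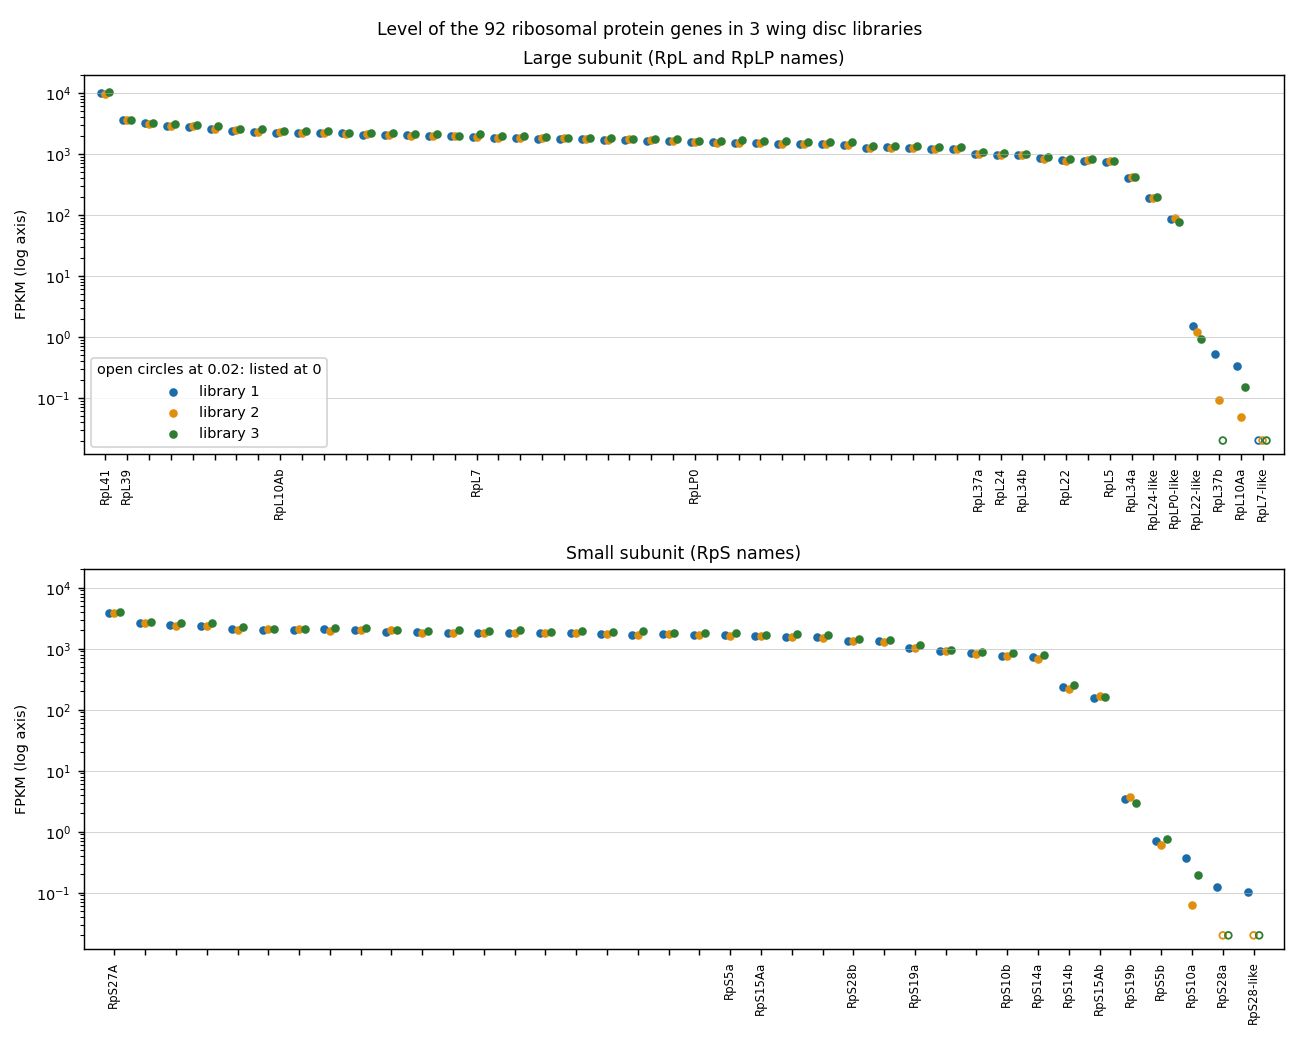
FPKM (log axis) of each of the 92 genes in libraries 1, 2 and 3 (1 point per library), ranked by mean within the large subunit (top) and the small subunit (bottom). The axis names the paired genes, RpL41, RpL39, RpL5 and RpS27A, and open circles mark a value listed at 0. Most genes form a plateau above 700 FPKM, RpL41 stands above it at 9939 FPKM, and the 9 genes under 10 FPKM form the tail on the right.

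Of the members, 84 reached 1 FPKM in every library, against 42.9% of all genes listed. A one-sided limma test of the mean log2(FPKM + 0.1) against 1 FPKM, adjusted by Benjamini-Hochberg over 13909 genes, called 84 of the 91 members it could test, against 53.4% of all genes tested. The lowest called gene was RpS19b at 3.38 ± 0.353 FPKM (limma adjusted p = 0.000245). The next below it, RpL22-like, stood at 1.52, 1.19 and 0.909 FPKM in libraries 1, 2 and 3 and was not called (limma adjusted p = 0.25).

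The 65 genes without a paralog pair spanned 13.2-fold from RpL5 to RpL41. Their median was 1855 FPKM, and 58 of them lay within a factor of 2 of it. The highest was RpL41, which encodes the smallest ribosomal protein, at 9870.3, 9631 and 10316 FPKM in libraries 1, 2 and 3. RpS27A, made as a fusion of ubiquitin and a ribosomal protein, followed at 3847, 3825 and 4041 FPKM. RpL40, the ubiquitin fusion of the large subunit, stood at 2079.7 ± 89.3 FPKM, and RpS30, made as a fusion with a ubiquitin-like protein, at 2144 ± 143 FPKM (SD, n = 3 each). The ubiquitin fusion genes of the small and the large subunit thus differed, with RpS27A above RpL40 in every library.

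The mRNAs for proteins of the peptide exit tunnel were not at 1 level. RpL39, a small protein of the tunnel wall, ranked 3 of all members at 3636 ± 6.66 FPKM and had the smallest SD of log2 level of the 85 members with at least 1 FPKM. RpL4 and RpL17, which also reach into the tunnel, stood at 1867 ± 63.3 and 1226 ± 49.7 FPKM. RpL23, a protein of the large subunit, was at 3147 ± 78.5 FPKM, and RpL23A, which sits at the tunnel exit, at 1723 ± 57.4 FPKM, and 31.9% of the RpL23A exons are also exons of Uhg7 and a snoRNA on that strand. RpL5 and RpL11, which join the ribosome together with the 5S RNA, stood at 751 ± 18.9 and 1488 ± 48.0 FPKM. This order depended on the length used, since per kilobase of the shortest transcript RpL5 was at 2812 and RpL11 at 2132. In the annotation RpL41 lies at chromosome 2R 24903416 to 24903935, RpL39 at 2R 24061853 to 24062431 and RpL5 at 2L 22532279 to 22536884 (dm6 coordinates).

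The stalk of the large subunit recruits translation factors and holds RpLP0 as its base and RpLP1 and RpLP2 as copies in dimers. In mRNA level, the genes of the acidic proteins were higher than that of the base: RpLP2 stood at 2900.5, 2836 and 3131 FPKM and RpLP1 at 2320.2, 2315 and 2525 FPKM in libraries 1, 2 and 3. RpLP0 stood at 1555, 1555 and 1651 FPKM, below the other stalk genes in every library. The mRNAs of RpLP2 and RpLP1, whose proteins are in the particle in more than 1 copy, ranked 5 and 12 of all members. That of RpL23, present once, ranked 4. Protein was not measured. The order depended on the length used: per kilobase of the shortest transcript RpLP1 was at 3050, RpLP2 at 2956 and RpLP0 at 1740. In recovered reads, not divided by length, RpLP0 was highest at 163444, against 142141 for RpLP1 and 138453 for RpLP2.

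Other genes among the 10 highest outside pairs were RpL27A at 2849 ± 121 FPKM, RpS18 at 2653 ± 47.6 FPKM and RpL21 at 2469.5 ± 91.0 FPKM (SD, n = 3 each). After RpL5, the lowest were RpL38 at 798 ± 30.9 FPKM, RpL28 at 854 ± 26.8 FPKM, RpS26 at 855 ± 40.2 FPKM, RpS21 at 917 ± 23.1 FPKM and RpL17. RpL13, RpL30, RpL37A and RpL26 lay between 1239.6 and 1289 FPKM. Neighbours in this order often did not separate: RpL28 and RpS26, for example, differed by less than the spread between libraries. RpS21 and RpS6, whose mutants overgrow the larval blood-forming organ, stood at 917 FPKM and 1771 ± 129.6 FPKM. RpS6, the substrate of S6 kinase, overlaps other genes on its strand over 16.9% of its exons.

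The median levels of the subunits were close. Members with a mean of at least 1 FPKM had a median of 1697 FPKM for 51 genes of the large subunit and 1776 FPKM for 34 genes of the small subunit. The log2 ratio of the medians was -0.08, -0.05 and -0.09 in libraries 1, 2 and 3 (mean -0.07 ± 0.02, SD, n = 3), and an exact sign-flip permutation test gave a two-sided p of 0.25, the smallest that 3 libraries allow. The sign depended on the summary, since the difference of the mean log2 levels was 0.09.

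How a gene's level compared with that of another depended on the exon length by which it was divided. FPKM divides by the merged exons of all annotated transcripts. Among the 65 genes outside pairs, those with longer merged exons had lower FPKM (Spearman's rho -0.59, Pearson's r of log2 values -0.65). These values are across genes, which are not replicates and share the libraries. The length is itself the divisor of FPKM, so the length and the level are not independent measures. RpL5 had the longest merged exons, 3835 bases for a coding length of 897 bases, and the lowest FPKM of these genes. RpL41 and RpL39 had among the shortest, with 320 and 288 bases. When the same reads were divided by the shortest annotated transcript, an alternative chosen after the data were seen, RpL5 moved from rank 77 to rank 22 of all members and RpS26 from 72 to 38. The ratio of the 90th to the 10th percentile was 1.62 with the shortest transcript, against 2.12 with merged exons, and 63 of 65 genes lay within a factor of 2 of the median. Between the shortest transcript and the level per kilobase of it, Spearman's rho was -0.13 and Pearson's r of log2 values -0.28. RpL41 stayed at rank 1, RpS27A moved to rank 3, and the lowest gene of the 65 became RpS27 at 1436 on that scale. RpL3 took rank 2, with a shortest transcript of 715 bases that is shorter than its coding length of 1415 bases. Per kilobase of coding length, the percentile ratio was 1.83, and 62 of 65 genes lay within a factor of 2 of the median. The highest gene stood 21.6-fold above the lowest with coding length, 13.2-fold with merged exons and 6.92-fold with the shortest transcript.

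**Figure D2:**
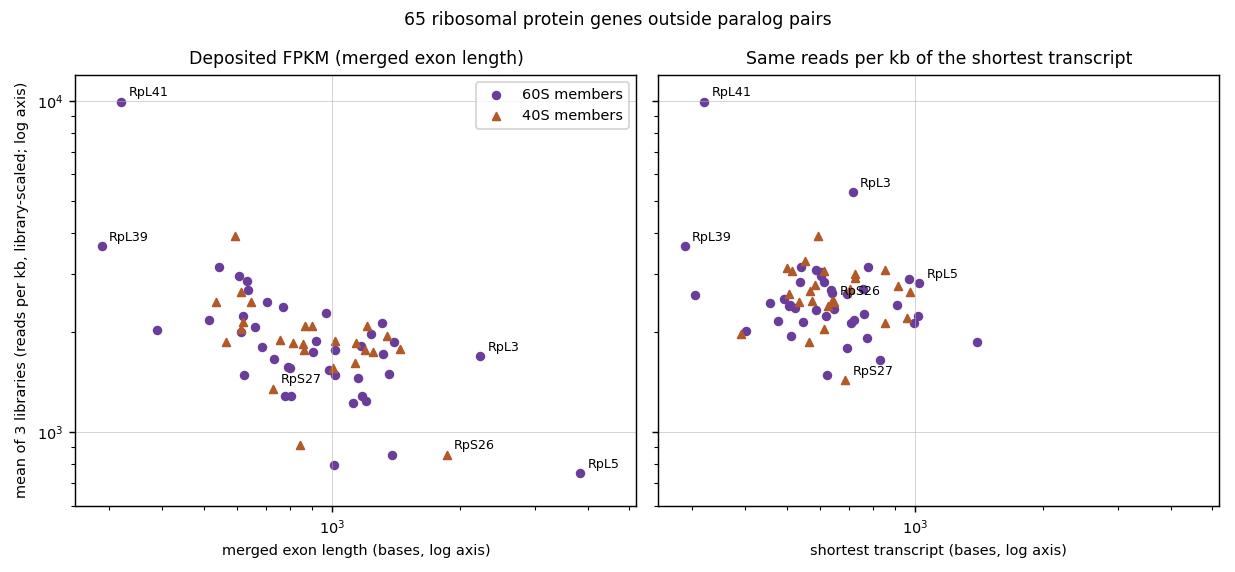
Mean level of the 65 genes outside paralog pairs (log axes) against the length used to compute it, for deposited FPKM and merged exon length (left) and for the same reads per kilobase of the shortest annotated transcript (right). Purple circles are large-subunit and brown triangles small-subunit genes. RpL5 is lowest at 751 FPKM on the left and stands at 2812 on the right, while RpL41 is highest in both at 9939.

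In each of the 14 paralog pairs 1 gene stood above the other in all libraries, and the values of its 2 genes did not overlap. In 7 pairs the lower gene stood below 1 FPKM, in 2 pairs it lay between 1 and 10 FPKM, and in 5 pairs at 10 FPKM or more. The 7 include RpL7-like, listed at 0, for which the counting of reads shared with an overlapping gene is not known. Ratios below are log2 of FPKM + 0.1 of the first-named over the second-named gene within a library. All 14 ratios had the same sign in all libraries, and each had the smallest p that the exact sign-flip permutation test allows, 0.25.

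**Figure D3:**
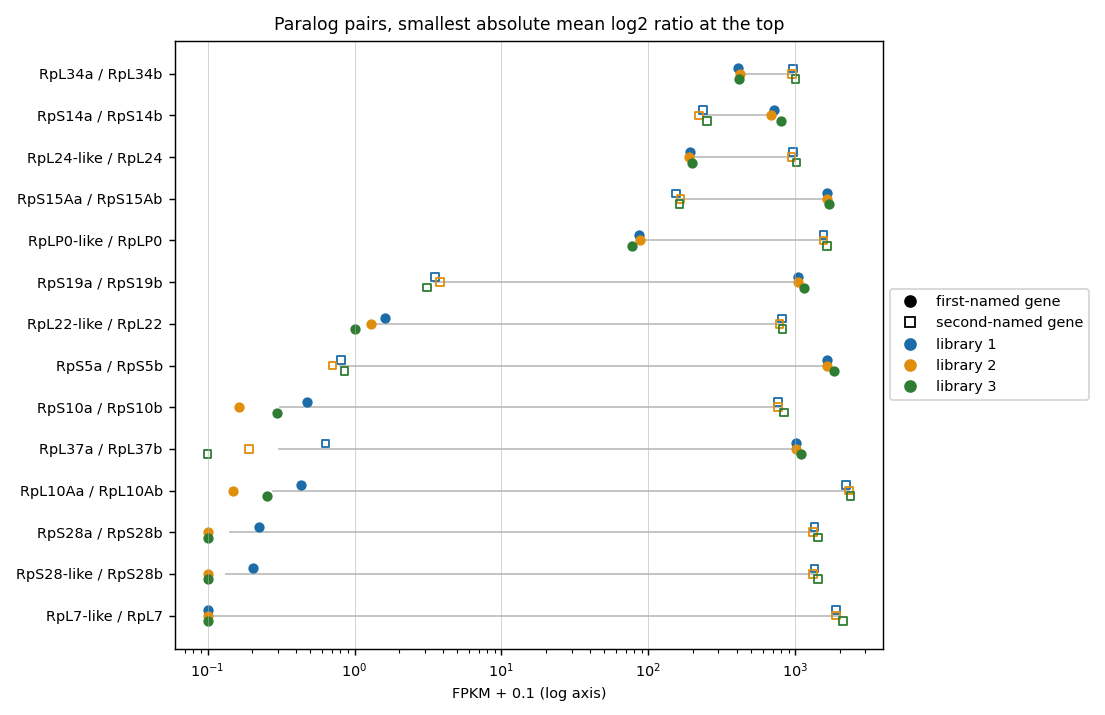
FPKM + 0.1 (log axis) of the first-named gene (filled circles) and the second-named gene (open squares) of each paralog pair, with 1 point per library, ordered from the smallest to the largest absolute mean log2 ratio. Grey lines join the means. The top 5 pairs have both genes above 70 FPKM, and in the other 9 the lower gene stays under 4 FPKM.

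Both genes contributed in the RpL34, RpS14 and RpS15A pairs. RpL34a stood at 409, 420.3 and 413 FPKM and RpL34b at 960.2, 947 and 1005 FPKM in libraries 1, 2 and 3, a log2 ratio of -1.23 ± 0.06 (SD, n = 3). RpL34a supplied 29.9% of the FPKM of the pair. Both lie on chromosome arm 3R, RpL34a at 26058420 to 26059267 and RpL34b at 9400237 to 9401226, far apart on the arm.

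RpS14a and RpS14b are neighbours on chromosome X, at 7933742 to 7934677 and 7934898 to 7935792, and encode the same protein. RpS14a stood at 721, 686 and 793 FPKM and RpS14b at 236, 222 and 251 FPKM, a log2 ratio of 1.63 ± 0.03. The coding sequences are near-copies, and how reads that match several places were counted is not given in the sources used here, so both levels and their ratio are uncertain. The summed FPKM of the pair was 0.523 times the median of the genes outside pairs.

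RpS15Aa on X stood at 1637, 1635 and 1707 FPKM and RpS15Ab, an intronless gene on 2R, at 154, 165 and 163 FPKM. The log2 ratio was 3.37 ± 0.05, and RpS15Ab supplied 8.83% of the FPKM of the pair. The same limit on shared reads applies to this pair and to the other a and b forms.

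RpL24-like and RpLP0-like are named after a ribosomal protein, but their yeast counterparts act in assembly of the large subunit. RpL24-like stood at 192, 189 and 198 FPKM, against 961, 943 and 1017 FPKM for RpL24, a log2 ratio of -2.33 ± 0.02, and exons of CG7099 on the other strand cover 21.6% of RpL24. RpLP0-like stood at 86.6, 87.4 and 77.1 FPKM, against 1555, 1555 and 1651 FPKM for RpLP0, a log2 ratio of -4.24 ± 0.15. Their levels were near those of the listed ribosome assembly genes, which had a median of 129.6 FPKM and of which 11 of 11 were called above 1 FPKM by limma, against 53.4% of all genes tested. In library 3 RpLP0-like was at its lowest while RpLP0 was at its highest.

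Paralogs known from the gonads were scarce in the discs. RpS19b, expressed in germ cells, stood at 3.44, 3.70 and 3.0 FPKM, against 1038, 1040.3 and 1137 FPKM for RpS19a, whose log2 ratio to RpS19b was 8.27 ± 0.22. RpL22-like, enriched in the male germ line, stood at 1.21 ± 0.308 FPKM, with 116 reads in all, against 801 ± 20.0 FPKM for RpL22 (log2 ratio -9.29 ± 0.35). A lncRNA on the same strand covers 34.3% of the RpL22 exons. RpS5b, an ovary-enriched form, stood at 0.711, 0.608 and 0.757 FPKM, against 1653, 1643 and 1844 FPKM for RpS5a, and the log2 ratio of RpS5a to RpS5b was 11.08 ± 0.09.

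For the remaining pairs the lower gene had almost no reads. RpL10Aa had 7, 1 and 3 reads in libraries 1, 2 and 3, RpS10a 6, 1 and 3 reads, and RpL37b 6, 1 and 0 reads. Their partners RpL10Ab, RpS10b and RpL37a stood at 2302 ± 82.5, 788 ± 44.7 and 1037 ± 46.9 FPKM. The lower gene supplied 0.00642% of the reads of the pair for RpL10Aa (95% exact Clopper-Pearson interval 0.0032 to 0.0115%), 0.0105% for RpS10a (0.00504 to 0.0193%) and 0.00672% for RpL37b (0.0027 to 0.0138%). RpS28a and RpS28-like had 1 read each, both in library 1, against 102848 reads of RpS28b, a share of 0.000972% (2.46e-05 to 0.00542%) for either. These intervals cover counting error only. With such counts the log2 ratios depend on the pseudocount and are not given as sizes.

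RpL7-like is listed at 0 in all libraries, while RpL7 stood at 1899, 1888 and 2113 FPKM. Exons of CG34164 on the same strand cover 98.8% of the RpL7-like exons, and CG34164 is also listed at 0. A count of 3 reads over the libraries, taken as the limit for no read, would be 0.0216 FPKM. This limit holds only if reads on both genes were counted, and the sources used here do not give how they were treated.

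The reads of RpL10Aa, RpS10a and RpL37b were most numerous in library 1, and so were those of listed testis genes. These 3 genes together had 19, 3 and 6 reads in libraries 1, 2 and 3. All 9 members under 10 FPKM together had 150, 120 and 102 reads. The 5 testis genes dj, Mst87F, can, aly and betaTub85D had 128, 18 and 51 reads, none reached 1 FPKM in every library, and all 5 were highest in library 1. Of 7869 other genes with at least 1 FPKM, 2376 were highest in library 1. The share among genes as low as the testis genes was not computed. The 6 listed germ line genes had 128, 108 and 123 reads, with osk listed at 0, and none reached 1 FPKM. RpL22-like was also highest in library 1, with 50, 38 and 28 reads, whereas RpS19b had 61, 64 and 50 reads and RpS5b 18, 15 and 18 reads. The part of testis RNA in the reads of these paralogs was not tested.

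**Figure D4:**
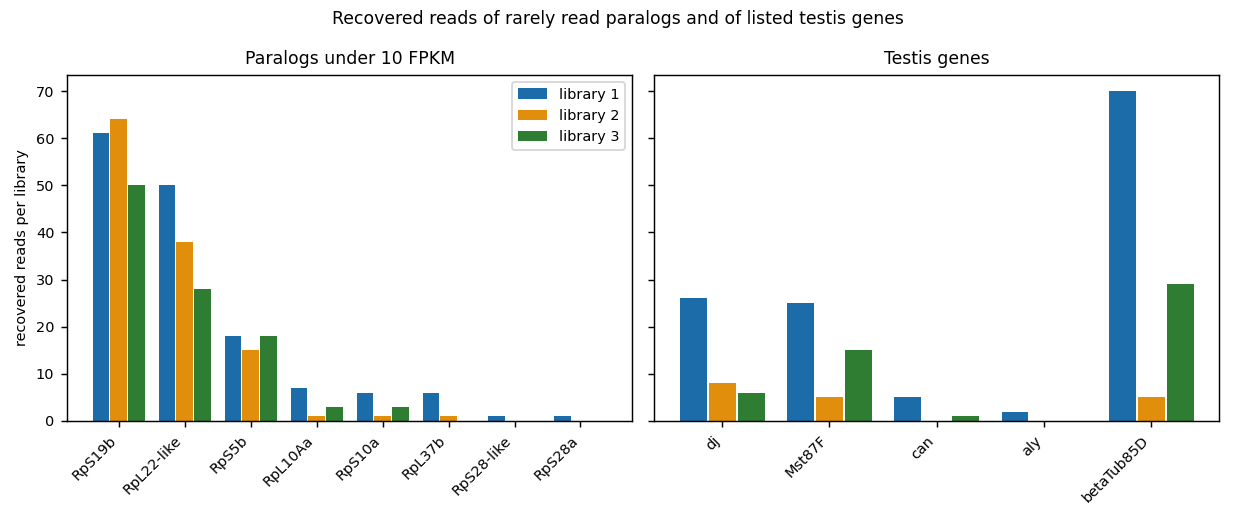
Recovered reads per library (bars, linear axis from 0) of the 8 paralogs under 10 FPKM with any read (left) and of 5 listed testis genes (right). RpL10Aa, RpS10a and RpL37b have 6 or 7 reads in library 1 and 0 to 3 in the others, and betaTub85D has 70, 5 and 29 reads in libraries 1, 2 and 3.

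The genes of a pair differed in structure and place. The lower gene of the pair had no intron in 5 of 14 cases (RpL10Aa, RpL37b, RpS10a, RpS15Ab and RpS28a). The 13 distinct higher genes all had introns. Most members had introns, since 6 of all 92 members had none, among them RpLP2, which is outside pairs. Of the higher genes 8 lie on chromosome X and of the lower genes 1, RpS14b. Only 5 of the 65 genes outside pairs are on X, so 8 of the 13 members on X that stand above 700 FPKM come from pairs. The median FPKM of members with at least 1 FPKM was 1295 for 14 genes on X, 1967 for 17 on 2L, 1949 for 20 on 2R, 1797 for 14 on 3L and 1612 for 19 on 3R. The only gene on chromosome 4, RpS3A, stood at 1956 ± 71.0 FPKM.

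Of the 92 members, 28 hold snoRNA genes within their span, 74 in all, the small RNAs that guide modification of ribosomal RNA. RpS5a holds the most, 14, followed by RpS7 with 7. All 28 hosts lay above 700 FPKM, with a median of 1773 FPKM, against 1612 FPKM for the 57 other members with at least 1 FPKM. Of the hosts 25 are outside pairs and 3 in pairs, while the 57 other members include lower genes of pairs. The 65 members outside pairs all lay above 700 FPKM too, with a median of 1855 FPKM. Hosts were not compared with the other members outside pairs alone, so the part of pair membership in the difference was not tested. Exons of genes on the other strand cover more than 10% of the exons of 7 members. For RpS9 the share is 50.3% and for RpL30 25.1%, and the use of strand in counting is not stated.

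The members differed between libraries in the same direction for the most part. The median SD of log2(FPKM + 0.1) over 85 members with at least 1 FPKM was 0.0573, against 0.0645 over 7869 other genes and 0.0445 over the 58 other genes with at least 500 FPKM. Without library 3 the median SD was 0.02 for the members and 0.05 for the other genes. Of the 85 members 77 were highest in library 3, against 36.2% of all genes with at least 1 FPKM. Their median log2 difference was 0.09 for library 3 minus library 1, 0.09 for 3 minus 2 and -0.01 for 2 minus 1, and the first is a 1.06-fold difference. The corresponding medians of the other genes were 0.00, -0.01 and 0.00. The pattern was seen in the values and has no test, because the libraries are replicates of 1 group.

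The higher level in library 3 was shared by both subunits, with 46 of 51 genes of the large subunit and 31 of 34 of the small subunit highest there. The 5 members with at least 5 FPKM and the largest SD were RpS14a, RpS6, RpLP0-like, RpL32 and RpL19, and 4 of them were highest in library 3. RpL32, long used as a reference gene for RNA blots and quantitative PCR under the name rp49, stood at 1487, 1512 and 1683 FPKM, among the more variable members. RpL39, at 3641, 3628 and 3638 FPKM, differed least. The 8 members that were not highest in library 3 were RpL10, RpL22-like, RpL34a, RpL39, RpLP0-like, RpS15Ab, RpS19b and RpS3A, and 5 of these are the lower gene of a pair.

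The direction of this difference was the same under 4 rescalings chosen after the data were seen, with 75 to 81 members highest in library 3. Each rescaling multiplied a whole library by 1 factor, from 0.978 to 1.016. It could not change how the members differed from the other genes. When each library was rescaled to the same summed FPKM over protein-coding genes, 75 of 85 members were highest in library 3 and the median difference between libraries 3 and 1 was 0.05, with the other genes at -0.04. When the libraries were rescaled to the same sum over genes that are not members, the count was 81 and the difference 0.08. Of the 4 fat body genes, 3 were also highest in library 3, while Fbp1 was at 124, 164 and 164 FPKM. Thor, the gene of the translational repressor 4E-BP, was highest there too, at 15.8, 24.1 and 41.1 FPKM. Their part in the level of the ribosomal protein genes was not tested.

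Ribosome components whose symbols lie outside the name pattern behaved alike. The gene sta, which encodes the small-subunit protein RpSA, stood at 2146, 2073 and 2419.9 FPKM, and Rack1, a scaffold on the small subunit, at 1420.5, 1423 and 1542 FPKM. Both were highest in library 3, by 0.17 and 0.12 on the log2 scale over library 1. Genes for making ribosomes did not follow: of 11 assembly genes 1, Non1, was highest in library 3, at 215, 213 and 263 FPKM, and the median log2 difference between libraries 3 and 1 was -0.08. The box C/D snoRNP genes nop5, Nop56 and Fib stood at 173 ± 7.27, 158 ± 5.28 and 146 ± 3.96 FPKM, and the H/ACA genes Nop60B and NHP2 at 131 ± 6.96 and 129.6 ± 2.89 FPKM (SD, n = 3 each). eIF6, which keeps new large subunits from joining small ones, was at 99.4 ± 1.71 FPKM, Nnp-1 at 52.0 ± 2.40 FPKM, bys at 40.5 ± 2.07 FPKM and the nuclear export adaptor Nmd3 at 33.9 ± 1.79 FPKM. Myc, a transcription factor that drives ribosome production, was at 19.5 ± 0.102 FPKM.

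**Figure D5:**
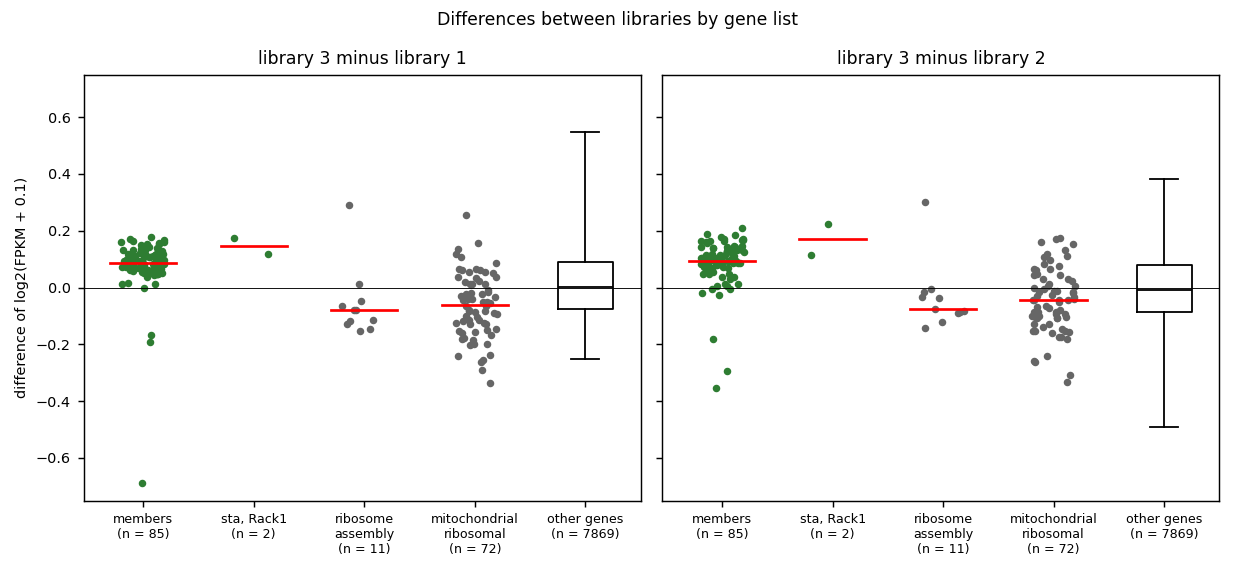
Difference of log2(FPKM + 0.1) between library 3 and library 1 (left) and between library 3 and library 2 (right) for ribosomal protein genes, sta and Rack1, ribosome assembly genes, mitochondrial ribosomal protein genes and all other genes with at least 1 FPKM. Points are genes and red lines medians; the box gives the median and quartiles of 7869 genes, with whiskers at the 5th and 95th percentiles. The members centre on 0.09 in both panels, and the assembly and mitochondrial genes centre below 0.

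The mitochondrial ribosome, which has its own proteins encoded in the nucleus, served as a comparison. The median of 85 cytosolic members stood at 1748 FPKM and that of 72 mitochondrial ribosomal protein genes with at least 1 FPKM at 30.0 FPKM. The log2 ratio of the medians was 5.77, 5.82 and 5.95 in libraries 1, 2 and 3, a mean of 5.84 ± 0.09 (SD, n = 3) or 57.5-fold, with the smallest exact sign-flip permutation p of 0.25. The highest mitochondrial gene, at 63.0 FPKM, lay below 83 members, all but the 9 under 10 FPKM. Mitochondrial genes were highest in library 3 in 13 of 72 cases, against 77 of 85 for the cytosolic members.

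Listed genes that control ribosomal protein genes or respond to their loss stood below every member outside pairs. By mean FPKM, all but Trf2 and raptor stood above 19.0 FPKM, the median of other genes with at least 1 FPKM. Xrp1, the transcription factor that acts in Minute cells, stood at 98.1 ± 1.63 FPKM and its partner Irbp18 at 31.0 ± 3.26 FPKM (SD, n = 3 each). RpS12, which is needed for the competition of Minute cells, was at 2053 ± 93.7 FPKM. Of factors known from promoters of ribosomal protein genes, Dref stood at 64.6 ± 2.90 FPKM, M1BP at 41.4 ± 1.12 FPKM and Trf2 at 15.4 ± 0.69 FPKM. Of genes that control the translation of these mRNAs, the cap-binding protein gene eIF4E1 was highest at 203 ± 2.83 FPKM, followed by larp at 38.6 ± 1.76, Thor at 27 ± 12.9, S6k at 24.7 ± 0.444, Tor at 22.1 ± 1.01 and raptor at 9.02 ± 0.646 FPKM. All 13 genes of these lists and of the components sta and Rack1 were above 1 FPKM by limma with adjustment over all genes (53.4% of genes tested).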

How the data were processed

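The deposited table holds FPKM values, made by the authors before deposition, for 17611 genes with 1 column for each of 3 libraries. The submitters' processing notes name CASAVA 1.8, FastQC 0.11.8, STAR 2.7.6a, featureCounts 1.6.0, DESeq2 and the build dm6, without roles. The sources used here do not give the annotation or the treatment of shared reads. Columns were matched to samples by number. FPKM times the merged exon length of Ensembl release 115 (dm6 coordinates, 17551 genes with a length) gave whole reads within 0.01 for 99.7% or more of genes above 0. These reads gave depth and read counts, not the main tests. Read counts of every pair of libraries differed by more than sampling noise.

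Levels were tested with limma 3.58.1 in R 4.3.3, one-sided, on log2(FPKM + 0.1) against 1 FPKM over the 13909 genes above 0 in any library, with Benjamini-Hochberg adjustment and a threshold of 0.05, after the test was checked on simulated data. Ratios were tested by exact sign-flip permutation, two-sided. A fold on the log2(FPKM + 0.1) scale understates changes of low genes. The members and lists were chosen with earlier results of these data known. Named are all paired genes, the 10 highest and 10 lowest members outside pairs, the 5 with the largest SD and the listed genes; other genes were named after their values were seen. Some genes that the rule names are not reported here.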

Additional observations from a re-analysis of the deposited data

How the results depend on the processing

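Of 138 alternative computations of 20 results, 133 counted as the same, 1 was reversed and 4 moved beyond the limits set for them. For ratios only the direction was checked, with no limit on the size. The log2 ratio of RpL34a to RpL34b, for example, was -1.84 with the shortest transcripts, against -1.23. The paralog ratios kept their direction in all 98 alternatives run on them (pseudocounts of 1 and 0.01, recovered reads, shortest transcripts, each library left out). The median log2 ratio of the large to the small subunit, -0.07, turned to 0.0873 with the mean of log2 levels, and the cause was not tested. The members' share of summed FPKM was 30.2% over protein-coding genes only, 30.8% without genes of the mitochondrial genome and 13.1% of recovered reads, against 28.3%. With 1 library left out the median SD of the members ranged from 0.0169 to 0.0701, lowest without library 3. The 84 members called above 1 FPKM numbered 83 against a level of 10 FPKM and 84 under every other setting run. The length over windows found once in the genome was not run. No paired analysis was possible because all libraries belong to 1 group. Reads shared by near-identical paralogs and the choice of exon length limit the order of levels.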
